A study of Mus musculus with 10 samples.

Results

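PARP enzymes take NAD and attach its ADP-ribose part to proteins or nucleic acids. The 9 genes described here were picked by name from the 54532 genes of the deposited table. Parp9, Parp10, Parp11, Parp12, Parp14 and Dtx3l are called the interferon-linked genes, and Parp1, Parp2 and Parp3 are the DNA repair PARPs that serve as their contrast. Interferon receptors signal through JAK kinases to STAT and IRF transcription factors, and the interferon-linked PARP genes are among the genes switched on by that signal. Their enzymes attach single ADP-ribose units or, like PARP9, work with a partner, and several of them limit virus replication. PARP1, PARP2 and PARP3 bind broken DNA strands and mark the break for repair, a role that does not need interferon.

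The libraries came from kidneys of wild-type male C57BL/6 mice whose left ureter was ligated at the age of 8 weeks (unilateral ureteral obstruction, UUO), which leads to tubular injury, inflammation and scarring. Kidneys were taken 14 days after surgery. Dimethyl malonate (DMM), a prodrug that inhibits succinate dehydrogenase, was given by intraperitoneal injection of 40 mg/kg every other day to 5 mice, and 5 control mice received PBS. All 10 kidneys were obstructed, so no value for an unobstructed kidney is given. The comparison asked which transcripts DMM alters in the obstructed kidney. Total counts per library ran from 16457495 to 18078777 in PBS-treated kidneys (median 17825223) and from 15722527 to 19475833 in DMM-treated kidneys (median 16794390). The kidney markers Umod, of the thick ascending limb, and Cdh16, of tubular epithelium, stood at 754 ± 253 and 235 ± 31.2 FPKM in PBS-treated kidneys (SD, n = 5), where FPKM is the read count scaled to gene length and to a normalized library size.

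A pair of DMM libraries stood apart. In DMM replicate 4, the 3298 genes of highest GC content were at a median of -0.72 on the log2 scale against the PBS mean, and the 3299 of lowest GC content were at 0.57, a difference of -1.29. In each of the other 9 libraries this difference was between -0.07 and 0.07 (16491 genes with a GC value). DMM replicate 1 had PBS-like levels of the interferon-linked genes, as given for each gene. It is also a library with a weight of 0 in the group means that the authors deposited, as is PBS replicate 3. Results are therefore given over all 10 libraries and over the 8 libraries that remain without these, and the reason for the weights is not given in the sources used here. Since DMM replicate 1 differs from the other DMM libraries in the very genes described, the 8-library comparison is not independent of them.

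The interferon-linked genes were at 16.8% to 73.3% of the PBS mean in DMM replicates 2 to 5, and at 93.7% to 107% of it in DMM replicate 1. In whole kidney, fewer cells of a type and less RNA of a gene per cell cannot be told apart. Over all 10 libraries, 0 of the 6 were called, as were 0% of the 16505 genes tested. A gene was called at a fold change above 1.5 and an adjusted p under 0.05, by the quasi-likelihood F test of edgeR and the Benjamini-Hochberg method over all tested genes. With an unadjusted p under 0.05, 1798 genes passed by edgeR, 993 of them with a fold change above 1.5. By adjusted p and fold, DESeq2 called 45 genes and 0 of the 6, for which its unadjusted p was 6.27e-04 (Parp9) to 0.0121 (Parp11). All 6 were among the 678 genes with that fold toward lower levels and an unadjusted p under 0.05, which made up 4.11% of those tested. Over the 8 libraries, 6 of 6 fell, where 3.56% of 16550 tested genes were called lower. When DMM replicate 1 alone was left out, 486 genes were called and 6 of 6 interferon-linked genes were lower, against 2.60% of the genes tested. The median log2 fold change of the 6 was -1.18 over 10 libraries and -1.73 over 8, with 0.02 for all tested genes in either set. Of the 3 repair genes, 0 were called over 10 libraries and 1, Parp3, over 8. None of the 9 genes was called higher, a call that 2.73% of genes received over the 8 libraries.

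**Figure D1:**
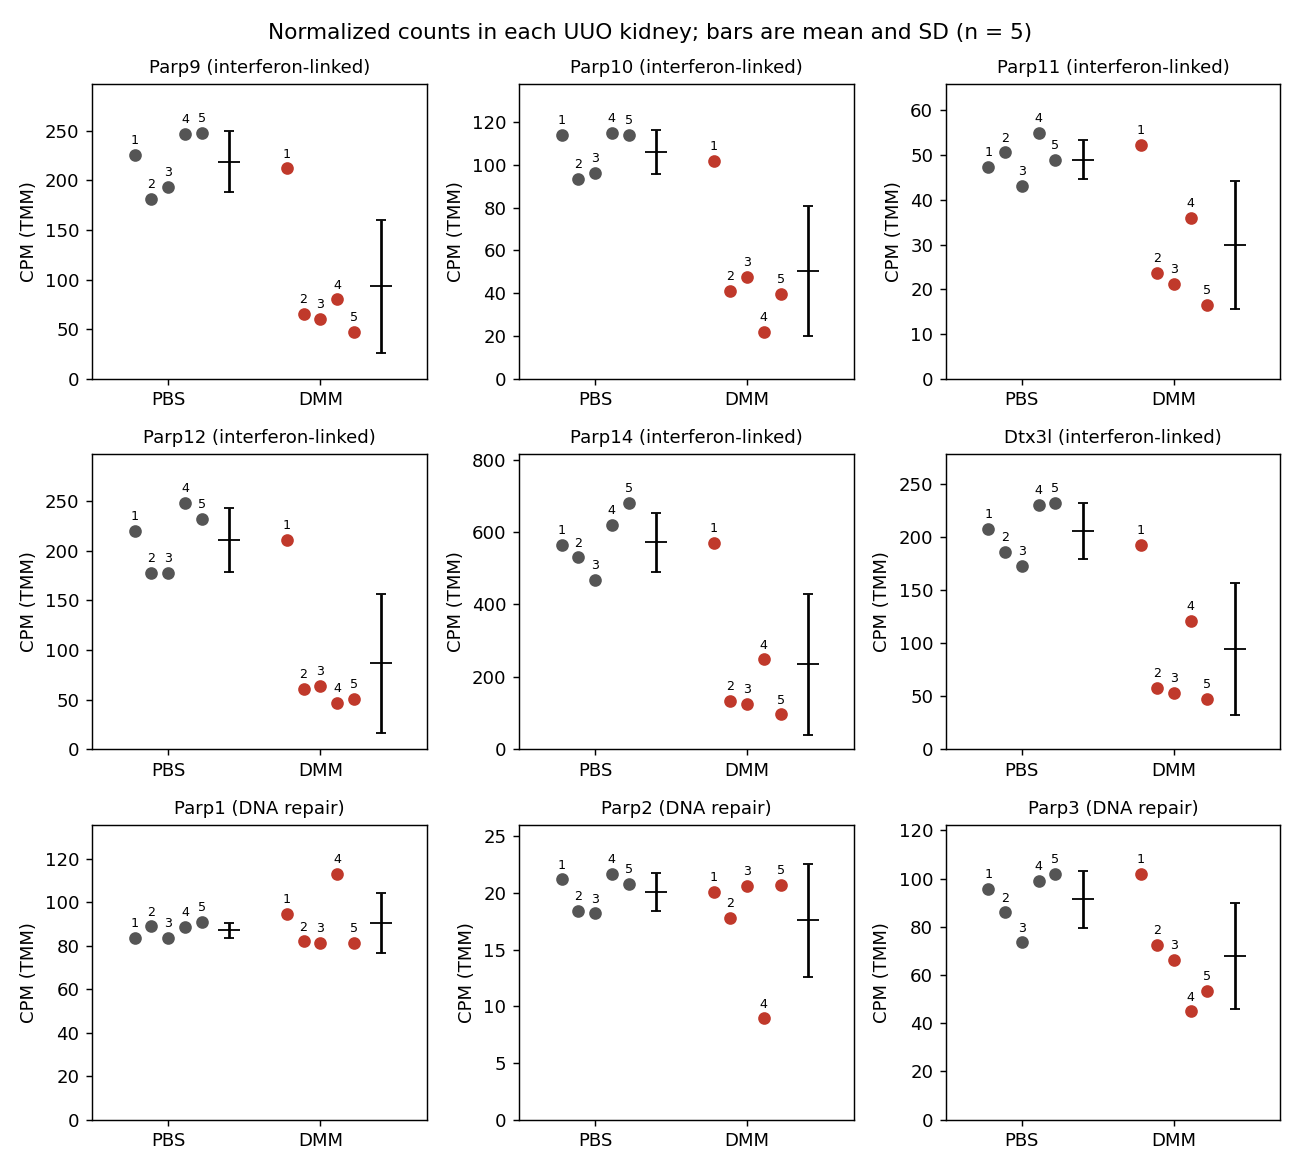
Normalized counts (CPM after TMM scaling) of the 9 genes in each UUO kidney, with PBS libraries in grey, DMM libraries in red, replicate numbers above the points, and the mean and SD (n = 5) beside each group. In the panels of the 6 interferon-linked genes, DMM replicate 1 lies within the PBS range and DMM replicates 2 to 5 lie below it. In the panel of the repair gene Parp3, DMM replicates 2 to 5 also lie below the PBS range, replicate 2 just under it.

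Parp9 and Dtx3l lie head to head and encode a complex, in which the Deltex-family ubiquitin ligase DTX3L pairs with PARP9. Parp9 was at 226, 181, 193, 247 and 248 CPM in PBS replicates 1 to 5 and at 212, 65.7, 60.6, 80.0 and 47.0 CPM in DMM replicates 1 to 5. CPM is the read count scaled to library size with TMM factors. DMM replicate 1 fell inside the PBS range, and the other 4 DMM kidneys were below every PBS kidney. The log2 fold change of Parp9 was -1.24 (standard error 0.37, adjusted p = 0.378, edgeR) over 10 libraries and -1.83 (standard error 0.18, adjusted p = 7.53e-04, edgeR) over 8. Dtx3l was at 208, 186, 173, 230.1 and 232 CPM in PBS replicates 1 to 5 and at 193, 58.1, 53.4, 121 and 47.4 CPM in DMM replicates 1 to 5. Here too 4 of 5 DMM kidneys were below the PBS range, and DMM replicate 4 was the highest of these 4. Its log2 fold change was -1.12 (standard error 0.36, adjusted p = 0.385, edgeR) over 10 libraries and -1.62 (standard error 0.29, adjusted p = 0.0130, edgeR) over 8.

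The pair kept a narrow ratio in most kidneys. Parp9 FPKM divided by Dtx3l FPKM was 1.14 to 1.31 in the PBS-treated kidneys and 1.29, 1.33, 1.33, 0.779 and 1.17 in DMM replicates 1 to 5. DMM replicate 4, the library with the GC difference, was thus the one kidney with less Parp9 than Dtx3l per length. The genes overlap by 682 bp on opposite strands of chromosome 16 (positions are on mm10), where Dtx3l (ENSMUSG00000049502) spans 35926511 to 35939151 and Parp9 (ENSMUSG00000022906) spans 35938470 to 35972605. Whether the authors' counting used strand is not given in the sources used here, and without strand, reads from the overlap cannot be told apart.

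Parp14, a large macrodomain PARP known as a partner of STAT6 in interleukin-4 responses, had the highest mean FPKM of the 9 genes in PBS-treated kidneys. It was at 565, 530.1, 467, 619 and 679.5 CPM in PBS replicates 1 to 5 and at 569, 133, 125, 248 and 96.2 CPM in DMM replicates 1 to 5. DMM replicate 1 sat near the PBS mean of 572 CPM, and the other 4 DMM kidneys were all below the lowest PBS kidney. Its log2 fold change was -1.29 (standard error 0.44, adjusted p = 0.385, edgeR) over 10 libraries and -1.99 (standard error 0.28, adjusted p = 0.00507, edgeR) over 8, a 3.98-fold lower level. Without DMM replicate 4 as well, the 8-library value was -2.34 (standard error 0.13). Parp14 (ENSMUSG00000034422) lies on chromosome 16 from 35832874 to 35871544, close to Dtx3l and Parp9.

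Parp12 encodes a zinc-finger PARP with antiviral activity. Its PBS replicates 1 to 5 held 220.1, 178, 178, 248 and 232 CPM, and DMM replicates 1 to 5 held 211, 60.6, 63.5, 46.5 and 50.6 CPM. DMM replicates 2 to 5 formed a tight group far below the PBS kidneys. With a log2 fold change of -1.99 (standard error 0.15) and an adjusted p of 1.88e-04 in edgeR over 8 libraries, Parp12 had the lowest adjusted p of the 9 genes there. Over 10 libraries the value was -1.29 (standard error 0.40, adjusted p = 0.378, edgeR). Parp12 (ENSMUSG00000038507) lies on chromosome 6, 39086410 to 39118349.

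Parp10, a mono-ADP-ribosyltransferase known to restrain cell growth when overexpressed, had 114, 93.6, 96.4, 115 and 114 CPM in PBS replicates 1 to 5 and 102, 41.2, 47.4, 21.9 and 39.6 CPM in DMM replicates 1 to 5. Again DMM replicate 1 was in the PBS range and the other 4 were below it, but DMM replicate 4 was here the lowest kidney. For Parp10 the log2 fold change was -1.08 (standard error 0.32, adjusted p = 0.378, edgeR) over 10 libraries and -1.54 (standard error 0.22, adjusted p = 0.00568, edgeR) over 8. Parp10 (ENSMUSG00000063268, chromosome 15, 76231174 to 76243441) overlaps the cytolinker gene Plec by 1401 bp on the same strand. Plec held 6171 to 9397 reads per library, and its log2 fold change over 8 libraries was -0.01 (standard error 0.15).

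Parp11, a mono-ADP-ribosyltransferase of the nuclear envelope, had the smallest log2 fold change in size of the 6 genes in both sets of libraries. It was at 47.4, 50.6, 43.1, 55.0 and 48.9 CPM in PBS replicates 1 to 5 and at 52.2, 23.6, 21.2, 35.9 and 16.5 CPM in DMM replicates 1 to 5. DMM replicates 2 to 5 were below the PBS range, with DMM replicate 4 nearest to it. For Parp11 the log2 fold change was -0.71 (standard error 0.27, adjusted p = 0.402, edgeR) over 10 libraries and -1.06 (standard error 0.22, adjusted p = 0.0231, edgeR) over 8. This call rested on each of 7 libraries. Without PBS replicate 1, 2, 4 or 5 or DMM replicate 2, 3 or 5, the adjusted p of Parp11 in edgeR was 0.0562, 0.0646, 0.0760, 0.0683, 0.0507, 0.0751 and 0.0518. The log2 fold change in these fits was -1.09 to -0.91, and the genes called in the whole table numbered 407 to 949 against 1042. Without DMM replicate 4 the adjusted p of Parp11 was 1.59e-04 in edgeR, at a log2 fold change of -1.31. Parp11 (ENSMUSG00000037997) lies on chromosome 6, 127446840 to 127494261.

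Exact two-sided permutation tests of mean log2 CPM, unadjusted for the 9 genes tested, gave p = 0.0238 for Parp9, Parp10, Parp12 and Dtx3l over the 10 libraries. The exact permutation p was 0.0317 for Parp14 and 0.0397 for Parp11, and the smallest that relabeling 5 against 5 libraries allows is 0.00794. With the 8 libraries it was 0.0286 for each of the 6 genes, the smallest p that 70 relabelings can give. The groups overlapped in all 6 genes over 10 libraries (0 of 6 without overlap, against 1.16% of all tested genes lower without overlap). With the 8 libraries they did not overlap in 6 of 6 and in 1 of the 3 repair genes, Parp3, where 10.6% of genes were lower without overlap.

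**Figure D2:**
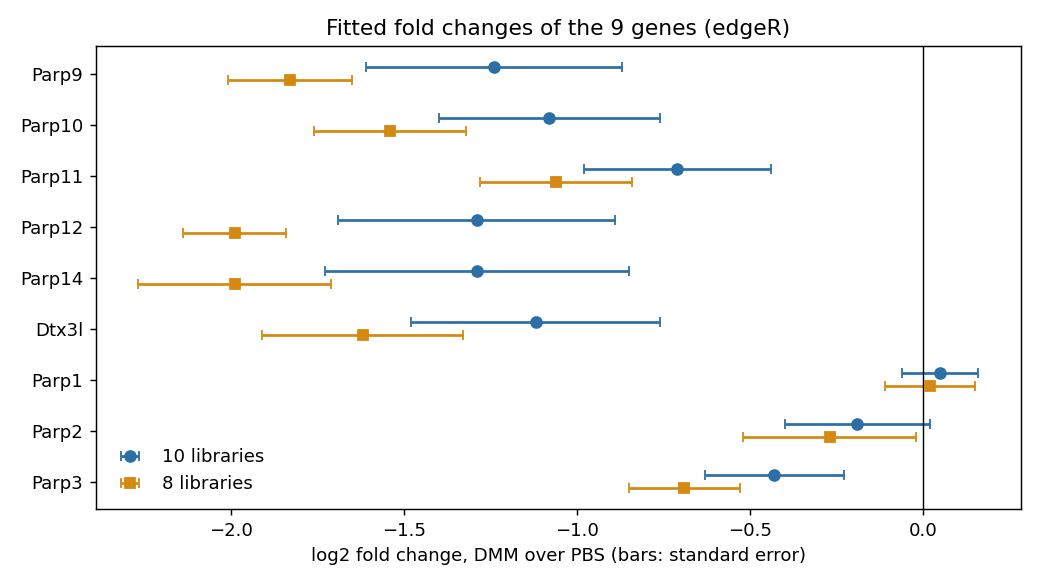
Log2 fold changes of DMM over PBS from edgeR for the 9 genes, with all 10 libraries (blue circles) and with the 8 libraries (orange squares), and bars of the standard error. The 6 interferon-linked genes lie between -1.29 and -0.71 over 10 libraries and between -1.99 and -1.06 over 8, and Parp1 lies at 0.05 and 0.02 (-0.04 and -0.11 when scaled by library size alone).

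Parp1, the main sensor of DNA strand breaks, held nearly the same level in every kidney but DMM replicate 4. It was at 83.5, 88.8, 83.4, 88.4 and 90.8 CPM in PBS replicates 1 to 5 and at 94.4, 81.9, 81.2, 113 and 81.2 CPM in DMM replicates 1 to 5. The groups overlapped, with the highest and the lowest kidneys both in the DMM group. Its log2 fold change was 0.05 (standard error 0.11, adjusted p = 0.850, edgeR) over 10 libraries and 0.02 (standard error 0.13, adjusted p = 0.941, edgeR) over 8, and exact permutation gave p = 0.746 over the 10. Its sign depended on DMM replicate 4 and on scaling. Without that library the value was -0.04 of 10 libraries and -0.11 of 8, and scaling by library size, without TMM factors, gave -0.04 and -0.11.

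Parp2, which shares strand-break signalling with Parp1, was at 21.2, 18.4, 18.2, 21.7 and 20.8 CPM in PBS replicates 1 to 5 and at 20.1, 17.8, 20.6, 8.94 and 20.7 CPM in DMM replicates 1 to 5. DMM replicate 4 alone lay far from the rest, and the other 4 DMM kidneys overlapped the PBS kidneys or lay just under them. The log2 fold change was -0.19 (standard error 0.21, adjusted p = 0.721, edgeR) over 10 libraries and -0.02 (standard error 0.09) when DMM replicate 4 was left out. Over the 8 libraries it was -0.27 (standard error 0.25, adjusted p = 0.568, edgeR), and -0.06 (standard error 0.10) when DMM replicate 4 was left out of these. Exact permutation gave p = 0.405 over 10 libraries and 0.171 over 8.

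Parp3, which acts in the joining of double-strand breaks, was the one repair gene called. It was at 95.8, 86.0, 73.5, 99.1 and 102 CPM in PBS replicates 1 to 5 and at 102, 72.4, 66.4, 44.9 and 53.4 CPM in DMM replicates 1 to 5. DMM replicate 1 was as high as the highest PBS kidney, and DMM replicates 2 to 5 were below every PBS kidney, as in the interferon-linked genes. DMM replicate 2 was just under PBS replicate 3, the lowest. The log2 fold change was -0.43 (standard error 0.20, adjusted p = 0.475, edgeR; exact permutation p = 0.0794) over 10 libraries. Over the 8 libraries it was -0.69 (standard error 0.16, adjusted p = 0.0340, edgeR; exact permutation p = 0.0286). Among the repair genes, 1 of 3 was thus called lower, beside 3.56% of all genes. The call was lost without PBS replicate 1, 2, 4 or 5 or DMM replicate 3 or 5, where the adjusted p from edgeR was 0.0890, 0.0730, 0.107, 0.116, 0.0674 and 0.105 and the log2 fold change -0.75 to -0.65. Without DMM replicate 4 the log2 fold change was -0.58, under the fold threshold, at an adjusted p of 0.00415 in edgeR. Parp3 (ENSMUSG00000023249, chromosome 9, 106470322 to 106476949) overlaps the ribosomal RNA processing gene Rrp9 by 987 bp on the opposite strand, and Rrp9 had at most 315 reads in a library. Parp1 (ENSMUSG00000026496) and Parp2 (ENSMUSG00000036023) lie on chromosome 1 (180568924 to 180601254) and chromosome 14 (50807841 to 50821301). No test of the difference between the repair genes and the interferon-linked genes was made.

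DMM replicate 4 departed from DMM replicates 2, 3 and 5 in both directions. Against the mean of these 3 on the log2 scale, it was higher by 1.19 in Dtx3l, 1.08 in Parp14, 0.83 in Parp11, 0.48 in Parp9 and 0.47 in Parp1. It stood at -1.13 against them in Parp2, -0.96 in Parp10, -0.50 in Parp3 and -0.32 in Parp12. The GC content of the longest transcript was 45.9% in Dtx3l, 46.3% in Parp14, 46.5% in Parp11 and 47.5% in Parp9, and 57.9% in Parp10. Parp2, at 47.4%, and Parp1, at 52.7%, did not follow that order. The part of base composition in these departures was not tested gene by gene. After each library was corrected for GC content and transcript length, 6 of 6 interferon-linked genes and Parp3 were called lower over the 8 libraries in limma's test, as were 4.58% of 16536 genes. Over all 10 libraries, limma's test after this correction called 0 of the 9 genes and 0% of 16491 genes lower.

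In PBS-treated kidneys, levels per length ran from Parp14 (61.0 ± 8.82 FPKM, SD, n = 5) through Parp12 (mean 52.5, range 44.1 to 61.6), Parp9 (44.6 ± 6.36) and Dtx3l (35.7 ± 4.60) to Parp10 (24.7 ± 2.47). Parp3 (24.5 ± 3.18 FPKM), Parp1 (16.3 ± 0.654), Parp11 (6.92 ± 0.623) and Parp2 (5.49 ± 0.458) followed. The ranges of FPKM between kidneys overlapped for neighbours from Parp14 down to Dtx3l and for Parp10 and Parp3. The other steps in the order showed no overlap. Within each PBS kidney, Parp14 was above Parp12 (ratio 1.07 to 1.28), Parp12 above Parp9, and Parp9 above Dtx3l (ratio 1.14 to 1.31). Parp10 and Parp3 changed places between PBS kidneys. In DMM-treated kidneys every neighbour in the order overlapped the next. By mean FPKM the order there was Parp14, Parp12 (21.6 ± 17.5), Parp9 (19.0 ± 13.8), Parp3 (18.3 ± 5.98), Parp1 (17.0 ± 2.55), Dtx3l (16.4 ± 10.9), Parp10 (11.7 ± 7.11), Parp2 (4.83 ± 1.38) and Parp11 (4.23 ± 2.04). Without DMM replicate 1 it was Parp1 (16.8 ± 2.89 FPKM, SD, n = 4), Parp14 (range 10.3 to 26.3), Parp3 (15.9 ± 3.36), Parp12 (13.8 ± 2.03), Parp9 (12.9 ± 2.73), Dtx3l (12.1 ± 5.86), Parp10 (8.73 ± 2.57), Parp2 (4.66 ± 1.53) and Parp11 (3.43 ± 1.16), again with overlap between neighbours. The order in PBS-treated kidneys without replicate 3 differed only in that Parp3 (25.7 ± 1.95) came before Parp10 (25.3 ± 2.40). Parp14 stood at 61.0 FPKM in DMM replicate 1 and at 14.2, 13.3, 26.3 and 10.3 FPKM in DMM replicates 2 to 5. Parp14 FPKM was 3.18 to 4.26 times that of Parp1 in PBS-treated kidneys and 3.43 times in DMM replicate 1. The ratio was 0.925, 0.873, 1.25 and 0.674 in DMM replicates 2 to 5, so that Parp14 was under Parp1 in 3 of these 4 kidneys.

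The make-up of the PARP family differed along with these levels. Summed over 16 ADP-ribosyltransferase genes, Parp9, Parp10, Parp11, Parp12 and Parp14 made up 58.9%, 55.1%, 56.4%, 59.5% and 59.5% of FPKM in PBS replicates 1 to 5. In DMM replicates 1 to 5 their share was 57.0%, 32.9%, 33.2%, 26.0% and 29.4%. Without the libraries of weight 0, the group means were 58.3 ± 2.11% and 30.4 ± 3.38% (SD, n = 4). The repair genes held 14.2 ± 0.403% of the family's FPKM in PBS-treated kidneys (SD, n = 5) and 15.4%, 23.5%, 23.1%, 14.4% and 23.6% in DMM replicates 1 to 5. A share rises when another falls, and the family total itself was 327 ± 33.0 FPKM in PBS-treated and 213 ± 75.8 FPKM in DMM-treated kidneys.

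**Figure D3:**
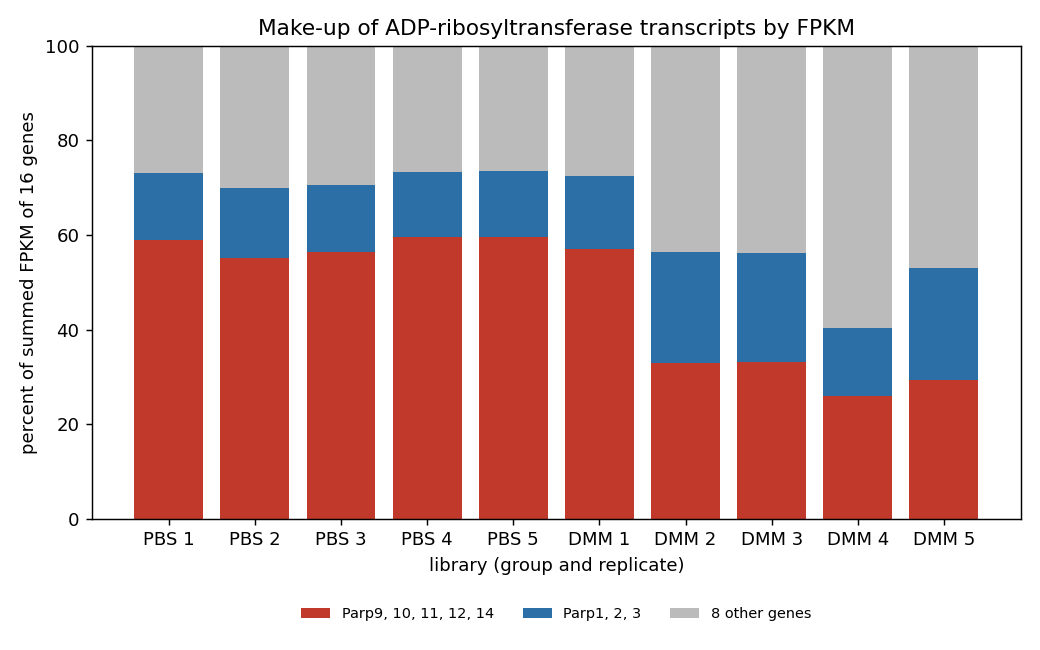
Share of the summed FPKM of 16 ADP-ribosyltransferase genes held by Parp9, Parp10, Parp11, Parp12 and Parp14 (red), by Parp1, Parp2 and Parp3 (blue) and by 8 other genes (grey) in each library. The red share is 55.1% to 59.5% in PBS libraries and 57.0% in DMM replicate 1, and 26.0% to 33.2% in DMM replicates 2 to 5.

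None of the 8 other ADP-ribosyltransferase genes was called by edgeR in either set of libraries. Over the 8 libraries 3.56% of all tested genes were called lower and 2.73% higher, so 0 of 8 is near those shares. Over 10 libraries, 0 of these 8 genes had an unadjusted p under 0.05 in edgeR with the fold, beside 4.11% of all tested genes toward lower levels. Their median log2 fold change over the 8 libraries was -0.02. Zc3hav1, which encodes the antiviral zinc-finger protein ZAP, was the lowest at -0.65 (standard error 0.32, adjusted p = 0.285, edgeR) over the 8 libraries. It was at 22.0 to 29.1 FPKM in PBS-treated kidneys, 26.8 FPKM in DMM replicate 1, 31.8 FPKM in DMM replicate 4 and 12.9, 13.1 and 10.7 FPKM in DMM replicates 2, 3 and 5. Without DMM replicate 4 its value over the remaining 7 libraries was -1.14 (adjusted p = 8.90e-05, edgeR) and Zc3hav1 was called lower, as were 7.61% of the genes tested there. The tankyrase genes Tnks and Tnks2 stood at 0.43 and 0.27, the dioxin-inducible Tiparp at 0.25 and the vault component Parp4 at 0.06. The first 3 of these values rested on DMM replicate 4, where Tnks was at 21.2 FPKM against 7.91 to 9.01 in the other 9 kidneys, and without it Tnks, Tnks2 and Tiparp stood at -0.04, -0.10 and -0.20. Parp8, Parp6 and Parp16 stood at -0.20, -0.16 and -0.09 over the 8 libraries, and with DMM replicate 4 left out at -0.30, -0.27 and -0.02, with Parp4 at -0.04. Among the other Deltex ligases, relatives of Dtx3l, 0 of 4 were called, again near the shares of all genes called. Their log2 fold changes over the 8 libraries were -0.58 for Dtx1, -0.47 for Dtx2, -0.25 for Dtx3 and -0.21 for Dtx4. These values too moved with DMM replicate 4, where Dtx3 was at 6.22 FPKM against 23.4 to 27.3 FPKM in the other 9 kidneys, and were -0.26, -0.28, 0.05 and -0.39 when it was left out, with none called.

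Of 7 genes listed for the removal of ADP-ribose or by kinship to such genes, 6 were tested, since Adprhl1 had at most 1 read in a library. Macrod2, a macrodomain hydrolase, was called higher over the 8 libraries (adjusted p = 0.0179, edgeR), beside 2.73% of all tested genes. Its log2 fold change there was 1.47 with a standard error of 0.28. Over 10 libraries it stood at 0.75 (adjusted p = 0.536, edgeR). Macrod2 was at 4.71 FPKM in PBS replicate 3, inside the range of DMM replicates 2 to 5 (2.98 to 5.32), and at 0.883 to 1.85 FPKM in the other 4 PBS kidneys and 1.51 FPKM in DMM replicate 1. With PBS replicate 3 alone left out of the 10, it stood at 1.27 (adjusted p = 0.264, edgeR) in a fit that called 0 genes. With DMM replicate 1 alone left out it stood at 0.95 (adjusted p = 0.260, edgeR) and was not called. The other 5 tested genes were not called. In the 8-library comparison the log2 fold change of the glycohydrolase gene Parg was 0.19, Macrod1 had 0.51, Oard1 had 0.03, Adprhl2 had -0.14 and Adprh had -0.45. With DMM replicate 4 left out, Parg stood at 0.03, Oard1 at 0.19, Adprhl2 at 0.06 and Adprh at -0.32. Macrod1 too was called higher in that fit, at 0.73 (adjusted p = 0.00744, edgeR), as were 1129 of 16828 genes tested. Over the 8 libraries 3.56% of all tested genes were called lower and 2.73% higher, and over 10 libraries 0%. Of 11 genes for partners of PARP1 in the repair of single-strand breaks, 0 were called in either set, near those shares. The 3 with the lowest unadjusted p over 10 libraries were Polb, Lig3 and Aptx, a polymerase, a ligase and an end-processing enzyme, whose log2 fold changes over the 8 libraries were -0.19, 0.34 and -0.23. The value of Lig3 was 0.10 without DMM replicate 4, which held 9.95 FPKM against 5.10 to 6.02 FPKM in the other 9 kidneys. When DMM replicate 4 was left out, 1 of the 11 was called lower, the ligase gene Lig1, at -0.70 (adjusted p = 0.00678, edgeR), named after its values were seen, beside 7.61% of all tested genes.

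Upstream of the interferon-linked genes, the transcription factor genes Irf1, Irf7 and Irf9 were called lower over the 8 libraries and not over 10. Their log2 fold changes were -1.39, -3.61 and -1.33 over the 8 libraries and -1.06, -2.28 and -0.92 over 10. Over the 8 libraries the log2 fold changes of the receptor genes Ifnar1, Ifngr1 and Ifngr2 were 0.06, -0.31 and -0.02, those for the kinase genes Jak1, Jak2 and Tyk2 were 0.07, -0.06 and -0.42, and none of these was called. Ifnar2 stood at -0.47 with an adjusted p of 0.0489 in edgeR, under the fold threshold. When DMM replicate 4 was left out, Ifnar1 stood at -0.22, Ifngr1 at -0.18, Ifngr2 at -0.29, Ifnar2 at -0.40, Jak1 at -0.09, Jak2 at -0.37 and Tyk2 at -0.32. All 7 were then under the fold threshold, and the adjusted p in edgeR was under 0.05 for Ifnar1 (0.0355), Ifngr2 (0.00966), Ifnar2 (0.00605), Jak2 (0.0207) and Tyk2 (0.0171). Among 20 other genes known to be induced by interferon, 19 were called lower over the 8 libraries, beside 3.56% of all tested genes, and 0 over 10, with a median log2 fold change of -2.83 and -1.73. Ifi44, Oas2 and Rtp4 led by p over 10 libraries and had -2.83, -2.24 and -2.69 over the 8. The exception was Samd9l, at -0.46 (standard error 0.32), with 41.0, 38.4 and 39.7 FPKM in DMM replicates 2, 3 and 5, 102 FPKM in DMM replicate 4 and 65.7 to 81.8 FPKM in PBS-treated kidneys. Without DMM replicate 4 its value was -0.94 (adjusted p = 1.32e-04, edgeR), and 20 of 20 were called lower, beside 7.61% of all tested genes. The log2 fold changes of the 6 interferon-linked genes, from -1.99 to -1.06, were thus nearer to 0 than the median of these 20. That difference was not tested, and the 20 genes were chosen with earlier results of these data known.

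Patterns over the 10 libraries were compared by the mean absolute difference of log2 CPM, centred on each gene's mean. The tested genes closest to the mean pattern of the 6 interferon-linked genes were Znfx1, Slfn2, Gbp7, Ddx58 and Samhd1, at differences of 0.0824 to 0.100. Among the 6 themselves, Parp9 was closest to their mean (0.0754) and Parp11 farthest (0.282), while Parp3, Parp2 and Parp1 lay at 0.492, 0.715 and 0.802. Each of the 6 is part of that mean and the repair genes are not, so the distances of the 6 are smaller in part by construction. The genes closest to Parp1 were Wdr33, Eif4enif1, Kansl1, Gpr107 and Dstn, at 0.0210 to 0.0371.

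Parp14, Dtx3l and Parp9 lie together on chromosome 16, from 35832874 to 35972605. Of 12 other protein-coding genes within 250 kb of that span, 7 were tested and none was called. Over the 8 libraries 3.56% of all tested genes were called lower and 2.73% higher, so none of 7 is near those shares. Dirc2 and Hspbap1, on the side of Parp14, had log2 fold changes over the 8 libraries of 0.04 and 0.03, and Sema5b, with at most 54 reads, had 0.29. Kpna1, the next gene after Parp9, had 0.42 (standard error 0.31), and Wdr5b, Fam162a and Ccdc58 had -0.13, 0.00 and 0.29. Of the 10 genes tested at this locus, the 3 called lower over the 8 libraries were thus Parp14, Dtx3l and Parp9. The window was drawn around these 3 genes, so their share of the 10 follows from that choice. Csta1, Stfa2l1, Gm5483, Gm5416 and 2010005H15Rik did not pass the filter on low counts.

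RefSeq promoters (GRCm38.p6) were found for 6 of the 9 genes in 7 entries, with 2 for Parp11 and no entry for Parp9, Parp10 and Parp14. Since the interferon-linked genes moved together, the 250 bases before each start were searched on both strands for the core of the interferon-stimulated response element, GAAANNGAAA, and for the gamma-activated site, TTCNNNGAA. The upstream of one Parp11 entry held both, overlapping by 3 bases, 29 to 44 bases before the start. This stretch, chr6:127446756-127446839 on the plus strand, is shown as the one with a match, and capitals mark the letters of both motifs, with the element core read on the reverse strand.
Parp11: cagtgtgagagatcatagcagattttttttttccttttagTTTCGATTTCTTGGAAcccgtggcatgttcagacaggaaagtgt
The other Parp11 entry and those of Parp12, Dtx3l, Parp1, Parp2 and Parp3 held neither string of letters in this window. Of 32851 promoters, 2.98% held the element core and 7.02% the gamma-activated site. A match describes the sequence and is no measurement of binding.

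Some markers of cell types also passed the test. Of 16 leukocyte markers, 3 were called lower over the 8 libraries, beside 3.56% of all tested genes, and 0 over 10. The 3, named after their values were seen, were Cd4, Cd68 and Itgax. Leaving out DMM replicate 4 gave 6 of 16, where the calls over all genes went from 1042 to 2410, with 1281 lower and 1129 higher of 16828 tested. Summed leukocyte marker FPKM was 710.1, 839, 587, 618 and 786 in PBS replicates 1 to 5 and 756, 533, 394, 281 and 398 in DMM replicates 1 to 5, and its most abundant gene was Lyz2. In this sum DMM replicate 1 was in the PBS range and the other 4 DMM kidneys were below it, but Lyz2 alone made up 599.7 of the 756 FPKM in DMM replicate 1. Adgre1, at 32.1 FPKM, and Cd4, at 3.31 FPKM, were in that library below every PBS kidney (41.7 to 48.3 and 3.62 to 6.11 FPKM). Of 12 proximal tubule markers, 3 were called higher over the 8 libraries, beside 2.73% of all tested genes. They were Lrp2, Cubn and Slc5a12, also named after their values were seen. The count was 11 of 12 without DMM replicate 4. It was 0 of 12 without DMM replicate 1 alone, where 50 genes of the whole table were called higher. Their sum, led by Kap, was 3114, 3083, 8282, 1069 and 2238 FPKM in PBS replicates 1 to 5 and 2428, 6614, 3808, 2199 and 7292 FPKM in DMM replicates 1 to 5, with wide overlap. PBS replicate 3 was the highest of all 10 kidneys in this sum.

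Of 8 further kidney markers, led by Umod, 2 were called higher over the 8 libraries, beside 2.73% of all tested genes. These were Slc12a1 and Slc12a3, named after their values were seen. Without DMM replicate 4 the count was 4 of 8, where 1129 of 16828 tested genes were called higher. The sum of the 8 was 1279, 1119, 1665, 863 and 816 FPKM in PBS replicates 1 to 5 and 1147, 1608, 1804, 716 and 1897 FPKM in DMM replicates 1 to 5, with overlap between the groups. Of 12 markers of vessels, stroma, blood, liver, muscle and basal epithelium, 10 were tested and 1 was called, the liver gene Alb (higher, with at most 25 reads). Their sum, led by the collagen gene Col1a1, was 651, 1004, 645, 1144 and 875 FPKM in PBS replicates 1 to 5 and 1287, 691, 1049, 1436 and 681 FPKM in DMM replicates 1 to 5, again with overlap. The sum joins markers that differed in sign. The hemoglobin genes Hba-a1 and Hbb-bs stood at 1.39 (adjusted p = 0.0647, edgeR) and 1.46 (adjusted p = 0.0598, edgeR) over the 8 libraries and Col1a1 at -1.07 (adjusted p = 0.0750, edgeR). All 3 were called without DMM replicate 4, at 1.15, 1.05 and -1.35. No gene of these marker lists was at 0 in all libraries. Mitochondrial transcripts made up 1.97% to 2.30% of counts in PBS replicates 1, 2, 4 and 5, 3.66% in PBS replicate 3 and 2.30%, 3.79%, 4.03%, 5.62% and 4.39% in DMM replicates 1 to 5. DMM replicates 2 to 5 were above every PBS kidney in this share, and DMM replicate 1 was not. The part of these markers and of mitochondrial transcripts in the levels of the interferon-linked genes was not tested.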

How the data were processed

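Whole-kidney RNA of 10 UUO mice was sequenced on a NovaSeq X Plus, with 1 library per mouse and 5 independent replicates per group according to the methods. The authors aligned reads to mm10 with HISAT2 2.0.5 and deposited, for every gene, an unnormalized count of reads. The counter, the annotation release and the use of strand are not given in the sources used here. The FPKM values that the authors deposited are scaled to the deposited gene length and to a library size that is 0.860 of the total count in DMM replicate 4 and 0.984 to 1.05 of it in the other libraries, close to the TMM-scaled size in each. The group means that the authors deposited are a signal, counts divided by DESeq2 size factors, and were used only to find the libraries in them. Columns of the authors' own comparison hold log2 fold changes, p-values and adjusted p-values and were not used. Columns of per-sample values that went unused number 0.

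Groups were taken from the sample titles. Counts were filtered by filterByExpr, scaled by TMM and tested by edgeR 4.0.16 in R 4.3.3. The deposited group means, written as weighted sums of the counts, gave a weight of 0 to PBS replicate 3 and DMM replicate 1. Standard errors were taken from the log2 fold change and its F statistic. Single genes were tested by exact two-sided permutation of log2 CPM (prior count 2), and levels between genes were compared in FPKM. The steps were tested on simulated counts. Depth per library was 15722527 to 19475833 counts, and reads are not independent molecules. The lowest count of any of the 9 genes was 148, in Parp2.

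Alternatives were DESeq2 1.42.0, size factors by RLE or by library size alone, other filters and thresholds, a fit to protein-coding genes, the replicate number as a block, a prior count of 0.5 and leaving out each library. A loess correction by the length and GC content of each gene's longest GENCODE vM21 transcript, tested by limma 3.58.1, was added after seeing the data. Named genes were the 9 members, the 3 genes of smallest unadjusted p over 10 libraries in each list of pathway genes, all genes of those lists of up to 8, the neighbours on chromosome 16, the 5 closest patterns and the most abundant gene of each marker list. Outside this rule, the interferon receptor and kinase genes, Samd9l, Lig1, Cdh16, the hemoglobin genes and the called markers were named after their values were seen. The fits of list genes without PBS replicate 3, DMM replicate 1 or DMM replicate 4 were added after seeing the data. The count over the list of interferon receptors and signal genes is not reported here. The members and lists were chosen with earlier results of these data known. The smallest chi-square per degree of freedom between any pair of libraries was 7.68, so that no library was a copy of another.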

Additional observations from a re-analysis of the deposited data

Results flagged for a closer look

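In 28 groups of 5 libraries, the highest or lowest library was compared with its nearest neighbour. A gap above 0.71 of the group's range, Dixon's 95% critical value for 5 values, occurred in 4 of them, where chance gives about 1 in 20 groups. The groups come from the same 10 libraries, and Parp12 is part of the family share. They are therefore not independent, and no excess over chance is read from the count. DMM replicate 1 was set apart in Parp12 (gap 0.794 of the range on the log2 CPM scale), at 211 CPM against 46.5 to 63.5 CPM in the other DMM kidneys. The same library was set apart in the share of family FPKM held by the interferon-linked PARP genes (gap 0.768), at 57.0% against 26.0% to 33.2%. DMM replicate 4 was set apart in Parp2 (gap 0.817 on the log2 CPM scale), at 8.94 CPM against 17.8 to 20.7 CPM. PBS replicate 3 was set apart in mitochondrial transcripts (gap 0.803), at 3.66% against 1.97% to 2.30%.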

How the results depend on the processing

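Over all 10 libraries, edgeR called 0 genes and DESeq2 called 45. DESeq2 tested 30851 genes against 16505, so the filter on low counts changed along with the test. An unadjusted p under 0.05 in edgeR gave 993 genes and the 8 libraries gave 1042. Leaving out 1 library gave 0 to 486 genes, with 486 only without DMM replicate 1. The count of interferon-linked genes called lower, 0 over 10 libraries, was 6 with an unadjusted p, 6 over the 8 libraries and 0 to 6 with 1 library left out, again 6 only without DMM replicate 1. For the repair genes it was 1 over the 8 libraries.

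Over the 8 libraries, 1042 genes became 1659 with DESeq2 (30191 genes tested, against 16550), 2265 with an unadjusted p and 407 to 2410 with 1 library left out. The count was 592, 547, 477 and 407 without PBS replicate 1, 2, 4 or 5, and 494, 2410 and 470 without DMM replicate 3, 4 or 5. Calls of repair genes then ran from 0 to 1, and those of interferon-linked genes were 5 or 6. With library size alone, 276 genes were higher and 700 lower, against 452 and 590, as the median of all genes moved from 0.02 to -0.09. Parp1 was then at -0.11, and at -0.04 over 10 libraries. It was at -0.01 with no filter over the 8 libraries, at -0.11 to 0.06 with 1 of the 8 left out and at -0.04 to 0.10 with 1 of the 10 left out. The cause was not tested. Each of the other 8 genes kept a negative log2 fold change under every alternative run.

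The replicate number as a block left 0 genes called over the 8 libraries, with 0 interferon-linked and 0 repair genes, and 0 over 10. The log2 fold changes of the 6 were then -2.06 (Parp12, adjusted p = 0.0586, edgeR) to -1.09 (Parp11, adjusted p = 0.162, edgeR), against -1.99 to -1.06, and that of Parp3 was -0.78 (adjusted p = 0.277, edgeR). Numbers 1 and 3 are then present in a single group each, so fewer libraries inform the fit. Same-numbered libraries deviated from their group means with correlations of -0.06, 0.08, 0.34, 0.12 and -0.22, and of the 5 numbers only number 2 had its own number as the closest partner, so the numbers were not taken to pair mice.

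The comparison rests on 5 or 4 mice a group, and DMM replicate 1 decides the calls over 10 libraries. Depth was no limit for the 9 genes. Whole-kidney RNA does not separate cell types, and transcripts were measured, not proteins or ADP-ribosylation.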
